A study of Mus musculus with 12 samples.

Results

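The 9 genes described here mark the homing and resting program of naive T cells: Ccr7, S1pr1, Klf2, Lef1, Tcf7, Foxo1, Foxp1, Bach2 and Satb1. They were taken by name from the 45777 genes of the deposited table, and all 9 are among the 23585 genes tested. The data are 12 polyA RNA-seq libraries of splenic CD4+ T cells from wild-type mice aged 7 weeks. All 4 groups, with 3 libraries each, received 0.5 ug/ml anti-CD3, which stimulates the T-cell receptor, for 3 days. One group received only anti-CD3, one also received Lactobacillus acidophilus, one FK506 (tacrolimus, a calcineurin inhibitor), and one both agents, which is called the combination. The bacteria were heat-inactivated according to the methods. The strain is Balb/c in the labels and B6 in the methods, and no unstimulated cells were analysed here. No source says whether the 3 libraries of a group came from separate animals or cultures, so p-values measure the spread between these libraries only.

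A naive T cell circulates between blood and lymph nodes and does not divide. CCR7 guides it into the node, S1PR1 lets it leave again, and KLF2 is a transcription factor that switches on S1pr1. FOXO1 drives Klf2 and Ccr7 and is kept out of the nucleus by growth signals, FOXP1 and BACH2 hold back activation, TCF1 (encoded by Tcf7) and LEF1 keep T-cell identity and the ability to self-renew, and SATB1 organizes chromatin in T cells. Activation through the T-cell receptor normally lowers Klf2, S1pr1 and Ccr7. FK506 blocks the calcineurin step that brings NFAT factors into the nucleus.

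The 12 libraries held 45416397 to 64658165 counted reads, with the 4 replicate 1 libraries the deepest (63113961 to 64658165). Cd4 and Cd3e were present in every library, at 131 to 256 and 136 to 306 FPKM (a level corrected for transcript length and depth), and Cd8a did not exceed 2.18 FPKM. B cell markers were not absent: 18 markers summed to 275.5 to 526.8 CPM (counts scaled to library size) in the anti-CD3 group, 208.8 to 430.5 in the L. acidophilus group, 2059 to 4112 in the FK506 group and 1622 to 1812 in the combination group. The sum of 13 myeloid markers was 5.83 to 9.55, 8.12 to 16.7, 15.3 to 42.7 and 89.1 to 148 CPM in the same order, and S100a8 was at 0 in every library. Combination replicates 2 and 3 were closer to each other than any other pair within a group, with a median absolute log2 difference over genes of 0.0506. Replicate 1 of the combination differed from them by 0.202 and 0.212. Results without that replicate rest on this close pair. The anti-CD3 libraries differed from one another by 0.196 to 0.3, the FK506 libraries differed by 0.143 to 0.161, and L. acidophilus replicate 1 differed from the others of its group by 0.149 and 0.155, against 0.0692 between them.

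**Figure D1:**
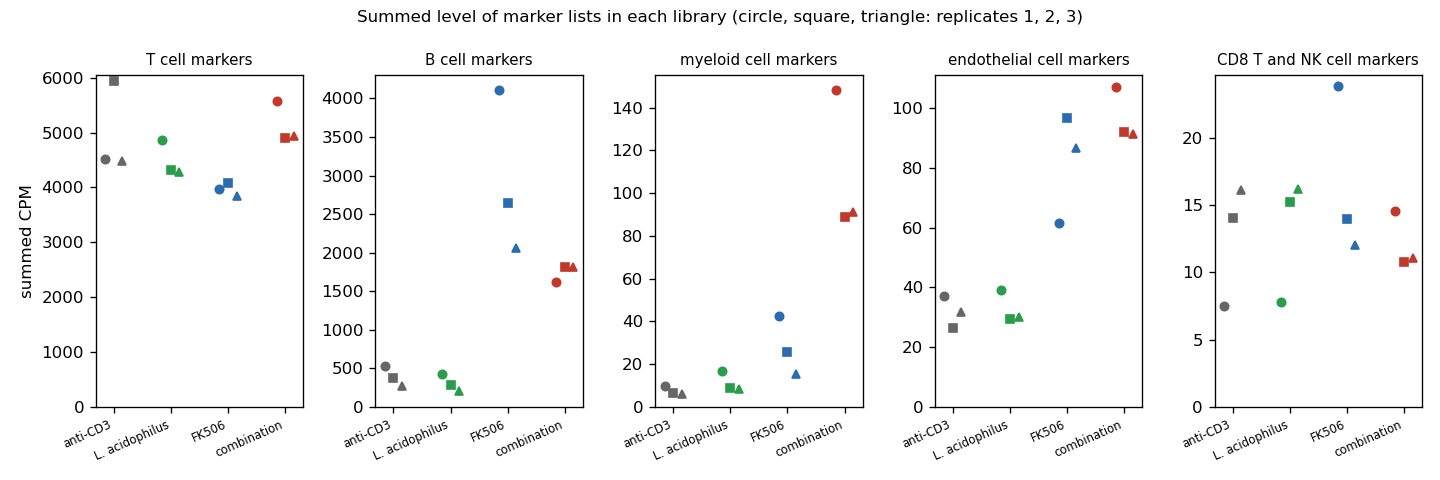
Summed level (CPM, linear axes from 0) of 5 lists of cell type markers in each library, by group. T cell markers lie between 3842 and 5947 in all groups, whereas B cell markers reach 1622 or more only in the 6 libraries with FK506 and myeloid markers reach 89.1 to 148 with the combination.

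The sequences before the start sites of 2 genes are shown because Klf2 had the largest rise and Satb1 the only fall among the 9 in the combination. Each is the 250 bases before a RefSeq start on GRCm38.p6, the build that the submitters' notes name, 5' to 3' on the gene's strand. Capitals mark GGAAA, the core recognized by NFAT factors, and CCACCC, a KLF motif, on either strand.
Klf2, chr8:72318812-72319061, plus strand: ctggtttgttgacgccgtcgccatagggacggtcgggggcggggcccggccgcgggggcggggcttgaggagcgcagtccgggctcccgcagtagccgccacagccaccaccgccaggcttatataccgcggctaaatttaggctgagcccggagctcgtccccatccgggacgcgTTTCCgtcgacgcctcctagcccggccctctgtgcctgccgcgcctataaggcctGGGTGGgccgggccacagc
Satb1, chr17:51833291-51833540, minus strand: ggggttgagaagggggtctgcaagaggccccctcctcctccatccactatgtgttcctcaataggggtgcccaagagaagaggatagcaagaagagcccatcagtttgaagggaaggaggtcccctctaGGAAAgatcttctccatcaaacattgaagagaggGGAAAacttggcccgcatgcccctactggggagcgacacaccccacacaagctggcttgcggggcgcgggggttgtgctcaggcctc
The Klf2 window held 1 NFAT core and 1 KLF motif, and the printed Satb1 window held 2 NFAT cores and no KLF motif. That window, window 1, is the most upstream given for Satb1. Satb1 windows 4 and 5 each held 1 NFAT core and 1 KLF motif, window 3 held 1 KLF motif only, and window 2 held neither. Among 32851 RefSeq windows of the same length, 55.6% held GGAAA and 28.1% held CCACCC, so neither is rare. Neither printed window held GTAAACA (forkhead, 3.17% of windows), CTTTGA (TCF/LEF, 13.8%) or TGANTCA (AP-1, 6.75%), all searched on both strands. The GC content was 71.2% for Klf2 and 58.0% for Satb1. For both printed windows, bases just after the start site were found in a GENCODE transcript of the same gene. RefSeq windows were given for 7 of the 9 genes.

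Of the 9 genes, 5 passed an adjusted p of 0.05 in the combination against anti-CD3 alone (edgeR's quasi-likelihood test with Benjamini-Hochberg adjustment over all genes tested, used for every p here). Klf2, S1pr1, Tcf7 and Foxp1 were upregulated and Satb1 was downregulated. All 5 changed at least 2-fold. Of all genes tested, 43.3% passed in this comparison, 21.5% higher and 21.8% lower, and 24.6% passed with at least a 2-fold change. The higher genes were 49.7% of those called, and 62.9% without TMM factors, where 6 of the 9 genes were higher and 1 lower. The median log2 difference of the 9 genes was 0.92, against 0.02 over all genes. In bulk RNA, more RNA per cell and more cells of one kind cannot be told apart.

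**Figure D2:**
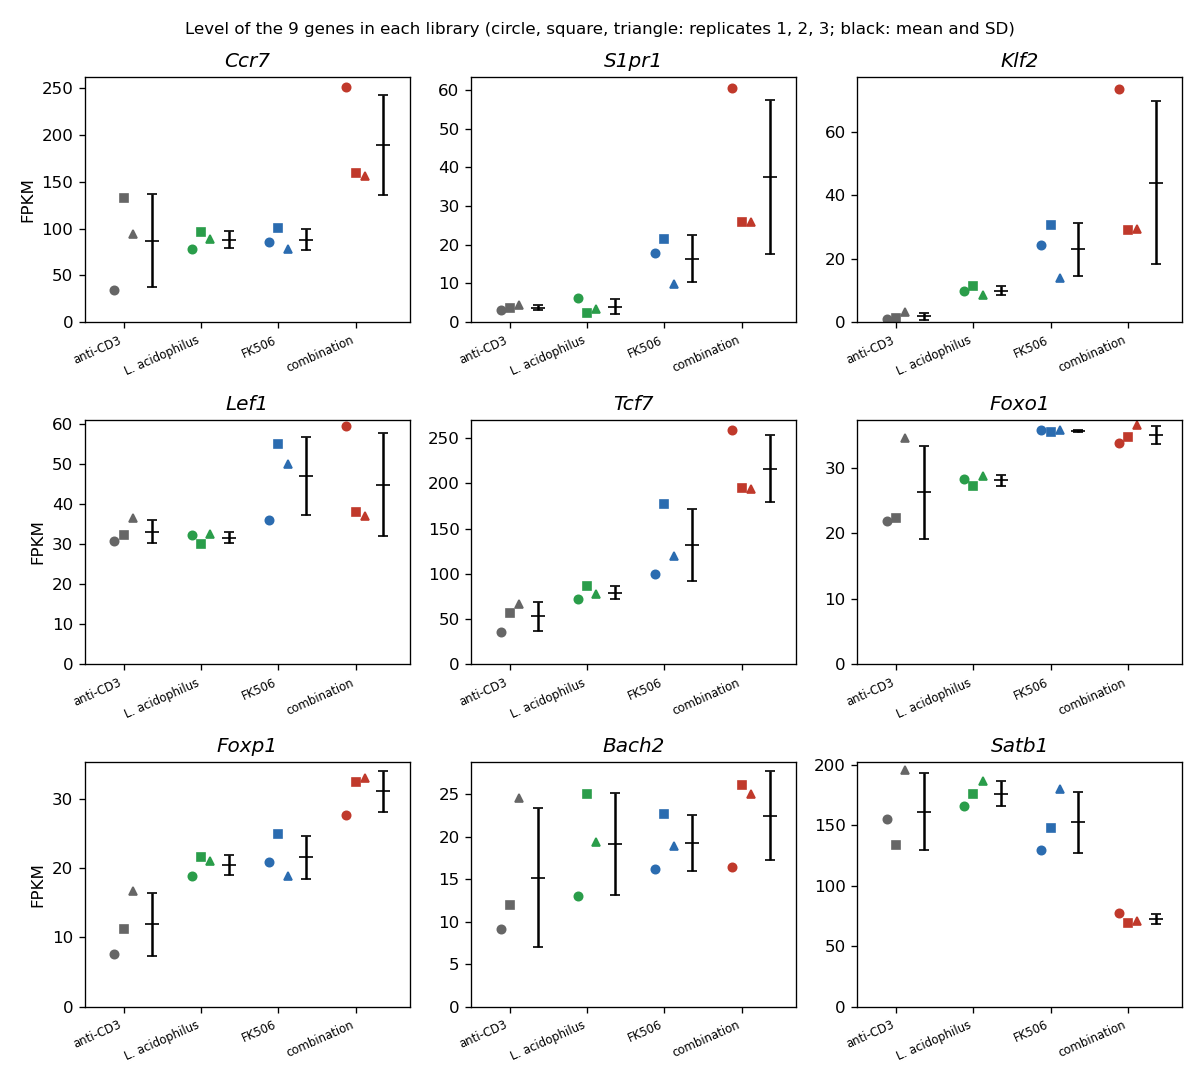
Level of each gene (FPKM, linear axes from 0) in every library, with symbols for replicates 1, 2 and 3 and the mean and SD of each group in black. Klf2 and S1pr1 go from at most 4.41 under anti-CD3 to at least 25.9 in all 3 combination libraries, and Satb1 is at 69.1 to 77.2 there.

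Klf2 (chr8:72319062-72321654) was the gene with the lowest level under anti-CD3, at 0.995, 1.34 and 3.11 FPKM in replicates 1, 2 and 3. It was at 9.65, 11.3 and 8.49 FPKM with L. acidophilus, 24.2, 30.5 and 14.0 with FK506, and 73.6, 29.1 and 29.2 with the combination. Every treated library lay above every anti-CD3 library, and only FK506 and the combination overlapped each other. The counts behind these values were 134 to 346 under anti-CD3 and 2742 to 9620 under the combination. Klf2 was 21.5-fold higher with the combination than with anti-CD3 (log2 4.43 ± 0.50 SE, adjusted p = 4.48e-05) and 11.8-fold higher with FK506 (log2 3.56 ± 0.49, adjusted p = 0.000683). Without replicate 1 of the combination the first of these was 3.80 ± 0.41 (adjusted p = 8.59e-05). The difference of same-numbered libraries, combination minus anti-CD3, was 5.98, 4.16 and 3.06 in log2 CPM. With L. acidophilus alone Klf2 was 5.19-fold above anti-CD3 (log2 2.38 ± 0.47), with an unadjusted p of 0.000282 and an adjusted p of 0.0614.

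S1pr1 (chr3:115710433-115715055), the receptor for lymph node exit, was at 3.18, 3.60 and 4.41 FPKM with anti-CD3 and at 6.14, 2.40 and 3.29 with L. acidophilus. It was at 17.8, 21.5 and 9.76 FPKM with FK506 and at 60.3, 25.9 and 25.9 with the combination. The anti-CD3 and L. acidophilus libraries overlapped, all FK506 libraries lay above them, and all combination libraries lay above the FK506 libraries. The combination was 8.81-fold above anti-CD3 (log2 3.14 ± 0.44, adjusted p = 0.000159, and 2.57 ± 0.36 without its replicate 1) and FK506 was 4.04-fold above (log2 2.02 ± 0.42, adjusted p = 0.00674). L. acidophilus alone differed from anti-CD3 by 0.01 ± 0.41.

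Ccr7 (chr11:99144199-99155077), the receptor for lymph node entry, spread widely under anti-CD3, at 34.0, 133 and 93.8 FPKM. It was at 78.6, 96.1 and 89.3 FPKM with L. acidophilus, 86.1, 100.1 and 77.7 with FK506, and 251, 159.7 and 156 with the combination. All 3 combination libraries lay above the 9 others on the FPKM scale, though not in CPM, while neither single agent separated from anti-CD3. The log2 difference of the combination from anti-CD3 was 0.92 ± 0.37 and missed the threshold (adjusted p = 0.0629). It passed in 6 of 23 alternative settings, among them the fit without TMM factors. Leaving out 1 library at a time gave 0.54 to 1.41, with adjusted p = 0.00899 without anti-CD3 replicate 2, the highest of its group, and 0.221 (difference 0.63) without combination replicate 1. The same-numbered differences were 2.69, 0.00 and 0.57 in log2 CPM.

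Both homing receptors and Klf2 were highest in replicate 1 of the combination, at 2.52 times the mean of the other 2 combination libraries for Klf2, 2.33 times for S1pr1 and 1.59 times for Ccr7 (FPKM). That library had the lowest B cell marker sum of its group (1622 CPM) and the highest myeloid sum (148 CPM). In the FK506 group, replicate 3 was lowest for these 3 genes and for the B cell sum (2059 CPM). Mature B cells also express Ccr7, S1pr1, Klf2, Foxo1, Foxp1 and Bach2. The part of other cells in the results was not tested.

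Tcf7 (chr11:52246527-52283383) was at 35.3, 57.0 and 66.9 FPKM with anti-CD3 and at 72.8, 86.8 and 78.0 with L. acidophilus. It was at 100.2, 177 and 119.6 FPKM with FK506 and at 259, 195 and 194 with the combination. The 4 groups did not overlap on this scale, in the order anti-CD3, L. acidophilus, FK506, combination. Tcf7 was 3.42-fold upregulated with the combination (log2 1.77 ± 0.24, adjusted p = 0.000121) and 2.25-fold with FK506 (log2 1.17 ± 0.23, adjusted p = 0.00519), and its difference with L. acidophilus was 0.48 ± 0.23 (adjusted p = 0.358). The gene overlaps Skp1, which had 4834 to 9039 counts, and the strand setting of the counting is not given in the sources used here.

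Lef1 (chr3:131110297-131224357), the close relative of Tcf7, differed little between the groups. Its levels were 30.8, 32.2 and 36.4 FPKM with anti-CD3, 32.2, 30.0 and 32.5 with L. acidophilus, 36.1, 55.0 and 49.9 with FK506, and 59.6, 37.9 and 36.9 with the combination. The combination overlapped FK506, and its high mean rested on replicate 1. On the count scale the difference from anti-CD3 was 0.13 ± 0.21 for the combination (adjusted p = 0.646) and 0.27 ± 0.21 for FK506 (adjusted p = 0.395). Without replicate 1 of the combination the first was -0.18 ± 0.15 (adjusted p = 0.375).

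Foxo1 (chr3:52268337-52350109) was at 21.9, 22.3 and 34.5 FPKM with anti-CD3 and 28.2, 27.2 and 28.8 with L. acidophilus. With FK506 it was at 35.7, 35.5 and 35.8 FPKM and with the combination at 33.8, 34.6 and 36.5. Replicate 3 of anti-CD3 reached the level of the FK506-treated libraries. The log2 differences from anti-CD3 were 0.34 ± 0.13 for FK506 (adjusted p = 0.0869) and 0.22 ± 0.13 for the combination (adjusted p = 0.186). Without that replicate both passed (adjusted p = 0.00195 for FK506 and 0.00213 for the combination), and with each other library left out neither did. Each comparison passed in 5 of 23 alternative settings, that one included.

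Foxp1 (chr6:98925342-99522746) was at 7.63, 11.3 and 16.7 FPKM with anti-CD3, 18.8, 21.6 and 21.0 with L. acidophilus, 20.9, 24.9 and 18.8 with FK506, and 27.7, 32.4 and 33.0 with the combination. Every treated library lay above every anti-CD3 library, and the combination lay above both single agents. Foxp1 was upregulated 2.29-fold with the combination (log2 1.20 ± 0.20, adjusted p = 0.000462) and 1.70-fold with FK506 (log2 0.77 ± 0.20, adjusted p = 0.0173). The FK506 call was lost without anti-CD3 replicate 2 (adjusted p = 0.0513) or FK506 replicate 2 (adjusted p = 0.0784). It was also lost with replicates 2 and 3 alone (adjusted p = 0.0585) and with only the groups compared (adjusted p = 0.074). With L. acidophilus the difference was 0.71 ± 0.19 (adjusted p = 0.132).

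Bach2 (chr4:32238413-32586109) did not pass in any of these comparisons. It was at 9.10, 11.9 and 24.5 FPKM with anti-CD3, 13.0, 25.0 and 19.4 with L. acidophilus, 16.2, 22.7 and 18.9 with FK506, and 16.4, 26.0 and 25.0 with the combination. Replicate 1 was the lowest library in all 4 groups. The combination differed from anti-CD3 by 0.59 ± 0.28 in log2 (adjusted p = 0.114). That adjusted p was 0.0188 without anti-CD3 replicate 3 and 0.0488 without combination replicate 1, and up to 0.317 without another library. With the replicate number as a block it was 0.00804.

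Satb1 (chr17:51736187-51833290) went the other way. It was at 155, 134 and 196 FPKM with anti-CD3, 167, 176 and 187 with L. acidophilus, 129.8, 148 and 179.9 with FK506, and 77.2, 69.1 and 70.8 with the combination. The anti-CD3 group and both single-agent groups overlapped one another, and the combination lay below all 9 of those libraries. Satb1 was 2.56-fold lower with the combination than with anti-CD3 (log2 -1.36 ± 0.16, adjusted p = 4.93e-05, and -1.43 ± 0.18 without replicate 1 of the combination). FK506 alone differed by -0.17 ± 0.15 (adjusted p = 0.473) and L. acidophilus alone by 0.05 ± 0.15 (adjusted p = 0.942). The same-numbered differences of the combination from anti-CD3 were -1.20, -1.22 and -1.64 in log2 CPM. The B cell marker sums of the FK506 and combination groups were 2059 to 4112 and 1622 to 1812 CPM, and their part in these values was not tested.

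With FK506 against anti-CD3, 4 of the 9 genes passed, all higher, against 19.0% of all genes in either direction and 10.2% higher (53.7% of those called, and 65.7% without TMM factors). The median log2 difference of all 9 was 0.34. The 4 that passed are Klf2, S1pr1, Tcf7 and Foxp1, which also passed in the combination. Both comparisons share the anti-CD3 libraries.

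With L. acidophilus against anti-CD3, none of the 9 passed in edgeR, where 0.229% of all genes did (54 genes). That count of all genes was 101 with the replicate number as a block, 1 to 383 with a library left out and 0 with only the groups compared. Of the 9, Klf2 and Foxp1 had an unadjusted p under 0.05, where 14.8% of all genes did. DESeq2 also called 2 of the 9, where it called 6.05% of the genes it gave an adjusted p. The groups did not overlap in CPM for 4 of the 9 (Klf2, Tcf7 and Foxp1 above, Lef1 below), against 18.2% of all genes. Klf2 and Foxp1 each passed without anti-CD3 replicate 3 (both adjusted p = 0.0249), and Klf2 also without combination replicate 1 (adjusted p = 0.0477), which enters through the shared estimate of the spread.

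The combination was then compared with each agent alone. Against FK506, only Satb1 passed, 2.28-fold lower (log2 -1.19 ± 0.16, adjusted p = 0.000624), where 19.1% of all genes passed and 10.9% were lower. Of the genes called there, 42.8% were higher, and 54.5% without TMM factors. Ccr7 (1.03 ± 0.37, adjusted p = 0.0744), S1pr1 (1.12 ± 0.41, adjusted p = 0.075) and Tcf7 (0.60 ± 0.23, adjusted p = 0.0908) missed the threshold, as did Klf2 (0.87 ± 0.43, adjusted p = 0.187), Foxp1 (0.43 ± 0.19, adjusted p = 0.146), Bach2 (0.24 ± 0.28, adjusted p = 0.601), Foxo1 (-0.12 ± 0.13, adjusted p = 0.567) and Lef1 (-0.14 ± 0.21, adjusted p = 0.703). In CPM, 6 of the 9 did not overlap (Ccr7, S1pr1, Tcf7 and Foxp1 above, Foxo1 and Satb1 below), against 40.8% of all genes. Without combination replicate 1, S1pr1 differed by 0.56 ± 0.36, Klf2 by 0.24 ± 0.38 and Ccr7 by 0.74 ± 0.39, while Lef1 moved to -0.45 ± 0.16 (adjusted p = 0.0745). With replicates 2 and 3 alone Lef1 passed, at -0.62 (adjusted p = 0.00748). Calls appeared when 1 other library was left out: Ccr7, Tcf7 and Foxp1 passed without anti-CD3 replicate 1 (adjusted p = 0.00769, 0.0468 and 0.041), Ccr7 without anti-CD3 replicate 2 (0.032), Tcf7 without FK506 replicate 2 (0.034) and S1pr1 without L. acidophilus replicate 1 (0.0484).

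Against L. acidophilus, 4 of the 9 passed, 3 higher and 1 lower, where 33.6% of all genes passed, 16.6% higher and 17.0% lower (49.4% of those called higher, and 60.5% without TMM factors). S1pr1 was 8.76-fold higher (log2 3.13 ± 0.44, adjusted p = 0.00029), Klf2 4.15-fold (2.05 ± 0.45, adjusted p = 0.00427, and 1.42 ± 0.38 with adjusted p = 0.0163 without combination replicate 1) and Tcf7 2.45-fold (1.30 ± 0.23, adjusted p = 0.00136). Satb1 was 2.65-fold lower (log2 -1.41 ± 0.16, adjusted p = 8.73e-05). Ccr7 (0.99 ± 0.37, adjusted p = 0.0583) and Foxp1 (0.49 ± 0.19, adjusted p = 0.0712) missed the threshold. Of 23 alternative settings, Ccr7 passed in 11 and Foxp1 in 8. Among them, both passed without anti-CD3 replicate 1 (adjusted p = 0.00467 and 0.0142), Ccr7 without anti-CD3 replicate 2 (0.0245) and Foxp1 without anti-CD3 replicate 3 (0.0208). Lef1 (0.38 ± 0.21), Foxo1 (0.19 ± 0.13) and Bach2 (0.25 ± 0.28) had adjusted p-values of 0.186, 0.28 and 0.551.

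**Figure D3:**
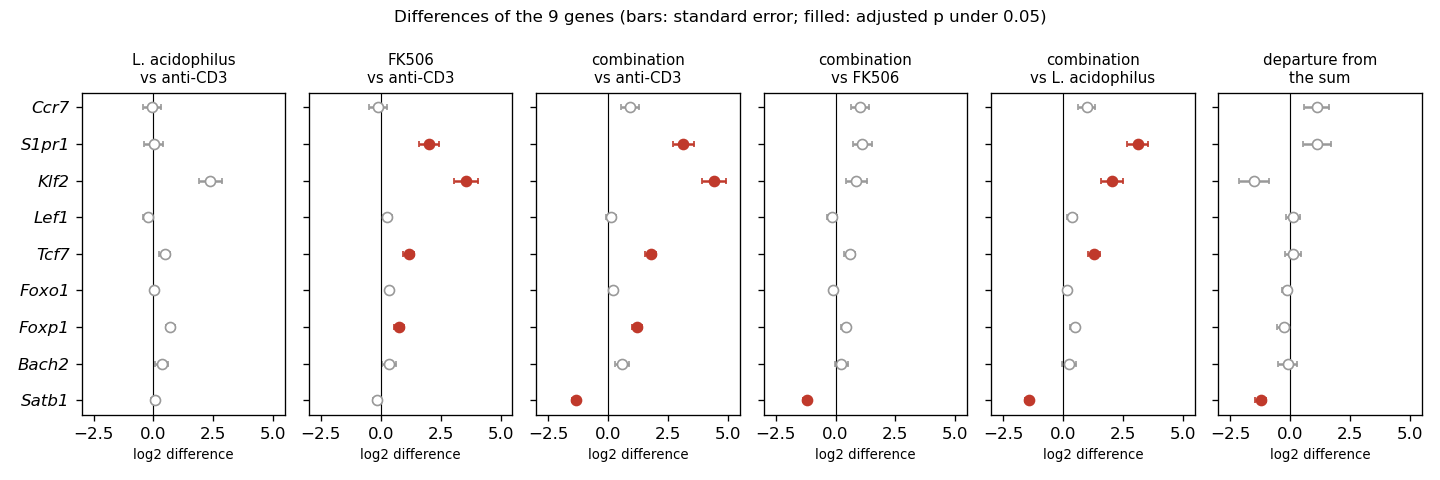
Log2 difference of each of the 9 genes in 5 comparisons and in the test of departure from the sum, with the standard error and filled points for an adjusted p under 0.05. Klf2, S1pr1, Tcf7 and Foxp1 are filled for FK506 and for the combination against anti-CD3, and Satb1 is the only gene filled in the last panel, at -1.24.

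The departure from the sum asks whether the log2 effect of both agents together differs from the sum of the effects of each. Satb1 alone passed, at -1.24 ± 0.22 (adjusted p = 0.013), where 4.35% of all genes passed and 3.0% were lower. Klf2 had -1.50 ± 0.62 (adjusted p = 0.206), S1pr1 1.12 ± 0.58 (adjusted p = 0.319) and Ccr7 1.10 ± 0.52 (adjusted p = 0.274). Without combination replicate 1 these were -2.13 ± 0.54 (adjusted p = 0.0568), 0.55 ± 0.49 (0.608) and 0.81 ± 0.53 (0.463), and Ccr7 passed without anti-CD3 replicate 1 (1.47 ± 0.32, adjusted p = 0.0338). The remaining genes lay between -0.28 ± 0.27 (Foxp1, adjusted p = 0.643) and 0.12 ± 0.33 (Tcf7, adjusted p = 0.913).

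The order of the genes by level, which FPKM allows, changed with the combination. Under anti-CD3 the mean levels were Satb1 162 ± 31.8 FPKM (SD, n = 3), Ccr7 87.0 ± 49.9, Tcf7 53.1 ± 16.1, Lef1 33.1 ± 2.95, Foxo1 26.2 ± 7.14, Bach2 15.2 ± 8.19, Foxp1 11.9 ± 4.56, S1pr1 3.73 ± 0.629 and Klf2 1.82 ± 1.14. Each neighbour from Ccr7 down to Foxp1 overlapped the next, and Satb1, S1pr1 and Klf2 did not overlap their neighbours. The gap was narrow between Satb1 (lowest 133.5 FPKM) and Ccr7 (highest 133.1), and between S1pr1 (lowest 3.175) and Klf2 (highest 3.111). With the combination the order was Tcf7 216 ± 37.3, Ccr7 189 ± 53.7, Satb1 72.4 ± 4.28, Lef1 44.8 ± 12.8, Klf2 44.0 ± 25.6, S1pr1 37.4 ± 19.9, Foxo1 35.0 ± 1.37, Foxp1 31.0 ± 2.90 and Bach2 22.5 ± 5.26. Tcf7 overlapped Ccr7, and Lef1, Klf2, S1pr1 and Foxo1 overlapped one after another. The places of Klf2 and S1pr1 in this order rested on replicate 1, where they ranked 4 and 5 of the 9, against 7 and 9 in replicate 2 and 7 and 8 in replicate 3.

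The ratio of Tcf7 to Satb1, both T-cell factors, was taken within each library. It was 0.228, 0.427 and 0.341 with anti-CD3, 0.437, 0.493 and 0.418 with L. acidophilus, 0.772, 1.19 and 0.665 with FK506, and 3.36, 2.83 and 2.74 with the combination. Anti-CD3 and L. acidophilus overlapped, and the other groups did not. This ratio was chosen after the levels were seen and was not tested.

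**Figure D4:**
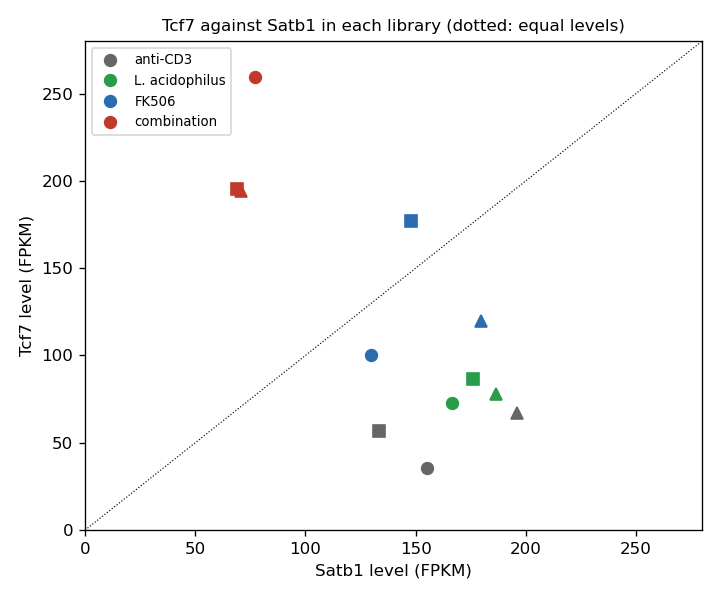
Tcf7 level against Satb1 level (FPKM) in each of the 12 libraries, coloured by group, with symbols for the replicates and a dotted line at equal levels. The 3 combination libraries lie far above the line, at ratios of 2.74 to 3.36, and FK506 replicate 2 at 1.19.

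The genes with profiles most like each of the 9 were found among 9392 genes with a mean of at least 10 CPM, as the smallest mean absolute difference of centred log2 CPM over the 12 libraries. For Klf2 these were Trib2 (0.449), Pde2a (0.496) and Rasa3 (0.515), and for S1pr1 Mturn (0.229), Neurl3 (0.256) and Slamf6 (0.288). Ccr7 was closest to Adora2a (0.207), Tprgl (0.214) and Ms4a6d (0.22). Tcf7 was closest to 4930523C07Rik (0.145), Gbp10 (0.156) and Btg1 (0.159), an antiproliferative gene. Satb1 was closest to Polr1b (0.0927), a subunit of RNA polymerase I, to Pus7 (0.107), a pseudouridine synthase, and to Dkc1 (0.108), the pseudouridine synthase of ribosomal RNA. Foxp1 was closest to Secisbp2l, Rc3h1 and Frs2 (0.113 to 0.125), Foxo1 to Ice2, Efcab14 and BC024978 (0.0597 to 0.0764), Bach2 to Spopl, Arap2 and Prkca (0.0897 to 0.12) and Lef1 to Cyb5a, Ubxn11 and Grk6 (0.124 to 0.132). Values are distances, smaller where the gene itself varies less. Among the 9, the closest pair was Foxp1 and Bach2 (0.249), followed by Lef1 and Foxo1 (0.253).

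Genes that act with the 9 were then examined in the combination against anti-CD3, in 9 lists from lymph node entry to T-cell activation. The counts stand against 21.5% of all genes higher and 21.8% lower with the combination, and 10.2% higher and 8.81% lower with FK506. Leaving out combination replicate 1 did not alter the count of any of these 9 lists. Without TMM factors the counts of higher genes were equal or up to 2 larger in each list, and the falls among the TCF and LEF partners, Foxo targets and quiescence regulators and 1 of the 2 in the sphingosine 1-phosphate axis were lost. Of 7 tested partners of lymph node entry, 4 rose and none fell, with a median log2 difference of 1.62 (0.02 over all genes), and 2 rose with FK506. Itga4 rose by 2.66 ± 0.32, the chemokine receptor gene Cxcr4 by 1.81 ± 0.20 and Itgb7, which encodes the partner of alpha 4, by 1.62 ± 0.28. The ligand genes Ccl19 and Ccl21a were not tested because of their low counts.

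In the sphingosine 1-phosphate axis, 6 of 9 tested genes rose and 2 fell with the combination, against 3 and 2 with FK506. Sgpl1, the lyase that destroys the ligand, rose by 1.53 ± 0.13. Cd69, whose protein removes S1PR1 from the surface, rose by 1.13 ± 0.13, S1pr4 by 0.94 ± 0.20 and the kinase gene Sphk1 by 0.79 ± 0.23 (adjusted p = 0.0148). Sphk1 fell with FK506, by 1.17 on the log2 scale (adjusted p = 0.00544). Its levels were 0.921, 1.29 and 0.896 FPKM with anti-CD3, 0.481, 0.573 and 0.526 with FK506, and 2.40, 2.11 and 2.13 with the combination.

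Of 8 other Klf genes, 4 rose and 1 fell with the combination, and 2 rose and 2 fell with FK506. Klf3 rose by 1.30 ± 0.21, Klf10 by 1.05 ± 0.19 and Klf4 by 0.71 ± 0.20, and Klf9 fell by 1.63. Among 11 tested partners and targets of TCF and LEF factors, 3 rose and 1 fell with each of the 2 FK506-containing treatments, and with the combination the share higher was near that of all genes (21.5%). Tle4, a corepressor, rose by 2.13 ± 0.18 and Axin2, a Wnt target, by 1.98 ± 0.27 with the combination. Of 9 tested forkhead genes, 3 rose (Foxo4 0.93 ± 0.17, Foxn3 0.78 ± 0.17, Foxn2 0.40 ± 0.10) and 1 fell (Foxk2, by 1.12), with 2 and 1 under FK506.

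Of 12 Foxo target genes, 7 rose and 1 fell with the combination, and 4 rose and 1 fell with FK506. Pik3ip1, a brake on PI3K, rose by 2.39 ± 0.31, Sesn1 by 1.76 ± 0.19, Btg1 by 1.73 ± 0.16 and Bcl2l11, which encodes the death factor BIM, by 1.61 ± 0.16. Il7r, the survival receptor of naive T cells, was picked after its values were seen and was 2.25-fold higher (adjusted p = 0.000279). Among 9 partners of Bach2 and Satb1, 3 rose and 1 fell, and 1 and 1 with FK506. Bach1 rose by 1.73 ± 0.18 and Nfe2l2 by 0.57 ± 0.10, whereas Gata3, a Th2 factor, fell by 1.63.

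Of 22 quiescence regulators, 15 rose and 1 fell with the combination, and 10 rose and none fell with FK506. Rasgrp2 rose by 2.67 ± 0.40, Slamf6 by 2.60 ± 0.27, Id3 by 2.56 ± 0.30 and Txnip by 2.17 ± 0.23. The gene that fell was Bcl2, by 0.85 (adjusted p = 0.0167), named after its value was seen. Of 18 activation genes, 10 fell and 3 rose with the combination, and 6 fell and 1 rose with FK506. Il2, the T-cell growth factor gene, fell by 3.22, the amino acid transporter gene Slc7a5 by 2.09, Myc by 2.07 and the transferrin receptor gene Tfrc by 1.62. The 3 that rose were Nr4a1, an early T-cell receptor response gene (2.54-fold, adjusted p = 0.00423), the activation marker Cd44 (2.21-fold, adjusted p = 0.0185) and the early marker Cd69 (2.18-fold, adjusted p = 5.81e-05), the first and second named after their values were seen.

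**Figure D5:**
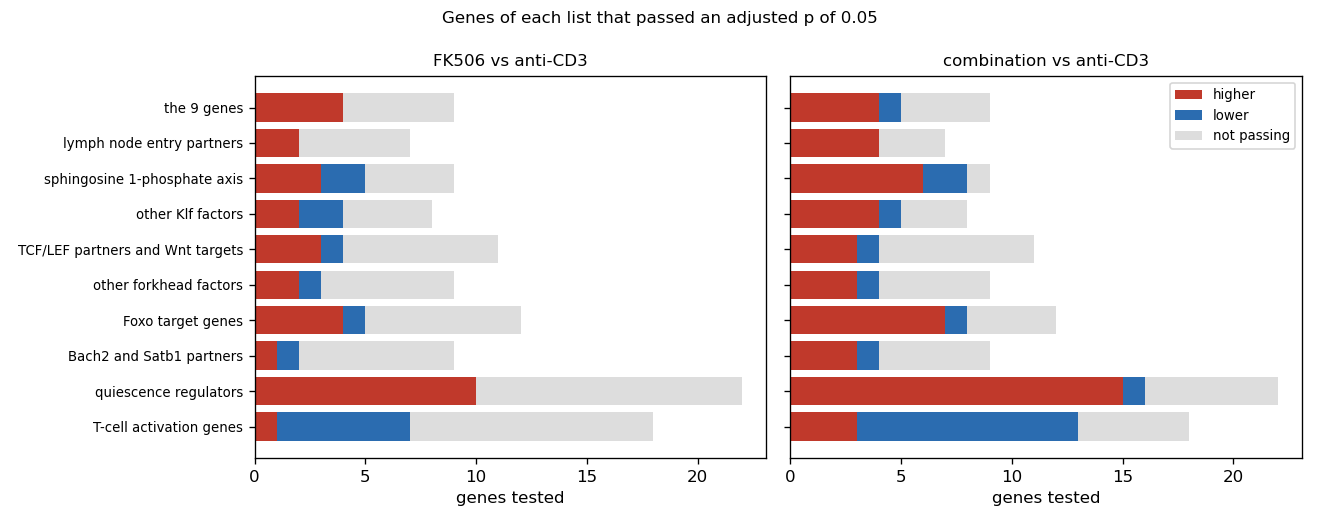
Number of tested genes in each list that were higher, lower or not passing at an adjusted p of 0.05, with FK506 (left) and with the combination (right), both against anti-CD3. With the combination 15 of 22 quiescence regulators were higher and 10 of 18 activation genes were lower.

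The marker lists were counted in the same way, against 21.5% of all genes higher and 21.8% lower with the combination and 10.2% and 8.81% with FK506. Among B cell markers, 13 of 18 rose with the combination and 17 of 18 with FK506, with none lower. The B cell genes Ms4a1 and Ighm were 7.58-fold and 6.80-fold higher with the combination, Ighd 22.2-fold, and Fcrla, near 0 with anti-CD3, reached 6.54 ± 0.322 FPKM. Among myeloid markers, 10 of 11 tested rose with each of these treatments. Lyz2 reached 20.4 ± 8.98 FPKM, Cd68 26.5 ± 0.937, Flt3 4.55 ± 0.486 and Adgre1 3.90 ± 4.20 with the combination, the last from 1 high library. Of 11 T cell markers, 3 rose with the combination (Cd3e 0.76 ± 0.10, Cd4 0.56 ± 0.10, Cd28 0.55 ± 0.13) and 1 fell (Cd2, by 0.75), with a share higher near that of all genes, while 4 fell with FK506. Of 6 CD8 T and NK cell markers, 2 rose with the combination (1 without its replicate 1) and 3 with FK506. Among endothelial markers 3 of 6 and 2 of 6 rose, with Pecam1, which T cells also express, at 5.55 ± 1.81 FPKM with anti-CD3 and 25.9 ± 1.80 with the combination. Cdh5 and Kdr did not exceed 0.0405 FPKM in any library.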

How the data were processed

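The authors deposited one table of 45777 genes with whole-number read counts and FPKM for each of the 12 libraries, per the labels 3 in each of 4 groups, and 12 TPM columns that were not used. The submitters' processing notes name bcl2fastq 2.20.0, Trimmomatic, HISAT2 2.1.0, StringTie 2.1.3b and mm10/GRCm38. The counts deposited carry no normalization, and the FPKM deposited by the authors are scaled to length and depth. The quantile normalization that the methods name is not seen in them. How reads of overlapping genes were split is not given in the sources used here.

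Genes with a count above 0 in 3 or more libraries (23585) were tested with edgeR 4.0.16 (quasi-likelihood, TMM factors, all 12 libraries, 1 mean per group) in R 4.3.3, and a gene passed at a Benjamini-Hochberg adjusted p under 0.05. Standard errors were derived from the F statistic of each log2 difference. CPM are TMM-scaled, with a prior count of 2 on the log2 scale. FPKM give levels. An exact permutation test of 3 against 3 libraries cannot go below p = 0.1. The test was also run on simulated independent libraries in which a small set of genes changed with the combination only. The real changes were far wider, so that run does not cover them.

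The 9 genes and all gene lists were chosen with earlier results of these data known. From each list, up to 4 genes with the largest change in the combination against anti-CD3 are named, among those that passed with a mean of at least 1 FPKM, and exceptions are stated. For each of the 9, the 3 nearest profiles are named. Alternatives were other filters, size factors, DESeq2 1.42.0, limma 3.58.1, the replicate number as a block, replicates 2 and 3 alone, only the groups compared and each library left out. The limma fits used log2(FPKM + 1), with and without quantile normalization, or quantile-normalized log2(FPKM + 0.1). Of the comparisons run, only L. acidophilus and anti-CD3 had every same-number correlation of deviations above 0.1 (0.479, 0.353 and 0.274 over 9393 genes). The mean same-number correlation was positive in each comparison. No source says that same-numbered libraries share an animal. Promoter windows were taken from RefSeq. A few list members are counted but not named.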

Additional observations from a re-analysis of the deposited data

Results flagged for a closer look

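Satb1 was set apart because adding L. acidophilus gave another effect beside FK506 than in its absence, by a test of the difference itself (edgeR, departure from the sum). The difference of the 2 effects was -1.24 ± 0.22 on the log2 scale (adjusted p = 0.013). Without FK506 the effect was 0.05 ± 0.15, and with FK506 it was -1.19 ± 0.16. All 3 combination libraries (69.1 to 77.2 FPKM) lay below all 3 FK506 libraries (129.8 to 179.9 FPKM). The myeloid marker sum was 15.3 to 42.7 CPM in the FK506 libraries and 89.1 to 148 CPM in the combination, and the part of other cells in this result was not tested.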

How the results depend on the processing

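Of 54 results for single genes (9 genes in 6 tests), 36 kept their side of the threshold under all alternatives run, up to 23 each, and 25 of these 36 also kept their sign in each. The other 11 were uncalled throughout and changed sign in at least 1. The remaining 18 changed side under at least 1 alternative, and no called value changed sign. The Satb1 results in the 3 comparisons with the combination and in the departure from the sum kept their call throughout (departure: adjusted p 1.2e-05 to 0.0418). The number of the 9 genes passing was 5 to 7 for the combination against anti-CD3 and 3 to 5 for FK506. For L. acidophilus it was 0, but 1 with filterByExpr, 1 with genes above 0 in 1 library, 2 with DESeq2, 1 with limma on log2(FPKM + 0.1) and 0 to 2 with a library left out. For the combination against FK506 it was 1, but 2 without TMM factors and 4 with DESeq2. Quantile-normalized limma gave 3 at a pseudocount of 1 and 3 at 0.1, and limma without quantile normalization gave 1. The number was 3 with replicates 2 and 3 alone, 3 with only the groups compared and 1 to 4 with a library left out. Against L. acidophilus it was 4, above 4 in 13 of 23 alternatives and never below, with 7 the highest (limma at 0.1, and 7 with only the groups compared), and 4 to 6 with a library left out. For the departure from the sum it was 1, and 1 to 2 with a library left out. The cause was not tested.

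With the replicate number as a block, 6 of the 9 genes passed for the combination against anti-CD3, 4 for FK506, 0 for L. acidophilus, 1 against FK506, 5 against L. acidophilus and 1 for the departure. Bach2 then passed (adjusted p = 0.00804) for the combination against anti-CD3. For the other comparisons not every same-number correlation of deviations was above 0.1: 0.0939, -0.121 and 0.469 for the combination and anti-CD3, 0.399, -0.212 and 0.0453 for FK506 and anti-CD3, 0.328, 0.0202 and 0.219 for the combination and FK506, and 0.211, 0.378 and 0.0231 for the combination and L. acidophilus. The mean same-number correlation was 0.147, 0.0773, 0.189 and 0.204 in the same order, and 0.369 for L. acidophilus and anti-CD3. FK506 and L. acidophilus were not compared in this way. No shared animal or batch is stated for same-numbered libraries.

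Over all genes, the count for L. acidophilus went from 54 to 126 with filterByExpr, 115 with genes above 0 in 1 library, 1121 with DESeq2, 86 to 174 with limma, 101 with the block, 3 with replicates 2 and 3 alone and 0 with only the groups compared (1 to 383 with a library left out, the highest without anti-CD3 replicate 3). The departure count went from 1025 to 2379 with DESeq2, 1560 to 1786 with limma, 1578 with the block and 462 with replicates 2 and 3 alone (331 to 1455 with a library left out). FK506 against anti-CD3 went from 4483 to 2725 with only the groups compared and to 2482 without FK506 replicate 2. The combination against FK506 went from 4508 to 2332 without FK506 replicate 3, 2761 without combination replicate 2 and 2813 without combination replicate 3. Leaving out TMM factors shifted the median of all genes by 0.205 for the combination against anti-CD3. Each of the 9 genes had counts of 134 or more in each library, and the spread between libraries was not compared with counting error.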
